A study of Mus musculus with 12 samples.

Results

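The passage of thymic invariant natural killer T (iNKT) cells from stage 0 to stage 1 was followed in cells labelled Bcl6KO, across all genes tested and across pathways. It is the contrast of 3 Bcl6KO stage 1 libraries with 3 Bcl6KO stage 0 libraries, taken by the genotype and stage in the sample labels. These are 6 of the 12 RNA libraries. The other 6 are the same stages in wild type (WT) cells, 3 libraries each, and are used to place the Bcl6KO values. The study, by its title, concerns how the transcription factor BCL6 acts on the early development of innate-like T cells. Cells were sorted from the thymi of untreated C57Bl/6J mice aged 4 to 5 weeks. Both stages bound the iNKT tetramer, carried the T cell receptor (TCR) beta chain and lacked surface CD44, and were separated by surface CD24, present at stage 0 and absent at stage 1. The mutant mice are given as CDCre;Bcl6F/F, a Cre transgene with floxed Bcl6 alleles, and both Bcl6KO groups carry it. The labels do not give the promoter beyond that name, nor the exons removed. Bcl6 RNA was higher in the libraries labelled Bcl6KO than in those labelled WT at both stages, as given with the Bcl6 values, so Bcl6KO is used as a label throughout. Each sample pooled the thymi of 4 to 7 mice, and the labels leave unsaid whether each library had its own pool. The p-values here therefore reflect scatter from library to library, which may be technical.

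iNKT cells carry a semi-invariant TCR that sees glycolipids on CD1d, and they are selected by CD4 and CD8 double-positive thymocytes rather than by thymic epithelium. Stage 0 cells have just received that selecting signal and resemble their double-positive precursors. Later cells lose CD24, come under the regulator PLZF (Zbtb16) and take up effector programmes that resemble those of helper T cells, named NKT1, NKT2 and NKT17. BCL6 is a zinc-finger repressor best known from follicular helper T cells and germinal centre B cells, which acts through corepressors such as NCOR and BCOR.

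Stage 0 and stage 1 libraries of Bcl6KO cells differed in how counts were spread over genes. The stage 0 libraries held 5558250, 8038717 and 6800328 counts in 17734, 14860 and 16267 genes, and the stage 1 libraries 4129919, 5068860 and 4808053 counts in 21144, 19181 and 20074 genes. The deeper libraries thus detected fewer genes. Sp100, an interferon-induced nuclear body gene, took 10.8%, 23.9% and 17.9% of the stage 0 counts and 0.0283%, 2.62% and 3.77% of the stage 1 counts, and its own difference did not pass the test (log2 fold change -3.53, SE 2.02, edgeR adjusted p = 0.434). All 12 iNKT markers of the list used here were counted. Their summed level, in CPM (counts scaled to the TMM-adjusted size of the library), lay between 5760 and 7980 at stage 0 and between 5320 and 6130 at stage 1. In bulk RNA, fewer cells of a type and less RNA per cell cannot be told apart.

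**Figure D1:**
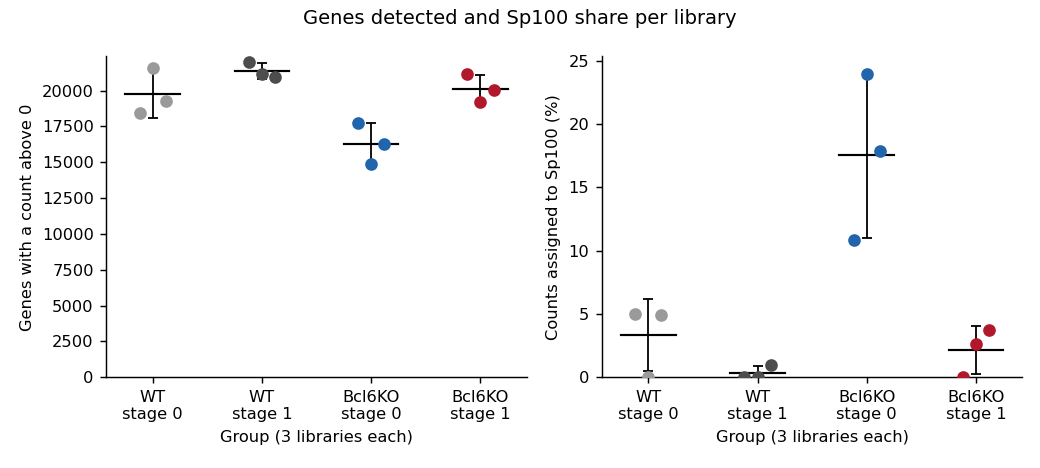
Genes with a count above 0 (left) and the percentage of all counts assigned to Sp100 (right) in each of the 12 libraries, as points, with the mean (long bar) and SD (error bar) of 3 libraries per group. The Bcl6KO stage 0 libraries had 14860 to 17734 genes detected and 10.8% to 23.9% of counts on Sp100, apart from the 3 Bcl6KO stage 1 libraries on both measures.

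Between the stages, Bcl6KO cells lost transcripts of the recombination genes Rag1 and Dntt, of both chains of CD8 and of the TCR response genes Nr4a1, Egr1 and Egr2. They gained transcripts of the type 2 cytokines Il4 and Il13, of the interleukin 25 receptor gene Il17rb, of the interferon-induced enzymes Oas2 and Oas3, and of Ugcg and St8sia6, which act on glycolipids and sialic acids. Of 15704 genes tested, 106 passed an adjusted p of 0.05 in edgeR's quasi-likelihood test (0.675%) and are named called. At stage 1, 66 were higher (0.420%) and 40 were lower (0.255%). The libraries of the stages did not overlap for 2750 genes (17.5%), 1846 of them higher (11.8%) and 904 lower (5.76%) at stage 1, and such genes are named separate. Over all genes the median log2 fold change was 0.01 and 50.5% were positive. Counts of called and separate genes in the lists below are to be read beside these shares of all genes. Of the called genes, 13 had no count in any stage 0 library and 1, Dmwd, had none in any stage 1 library.

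How many genes passed depended strongly on the libraries and the model. All 106 called genes kept their sign in each of 23 alternative analyses that tested them. Genes picked by low p in the same libraries could hardly change sign, so this gives the directions no support. Only Cd24a passed in all 23, 14 genes missed at most 3, and 53 passed in fewer than 12. Leaving out Bcl6KO stage 1 replicates 1, 2 or 3 gave 8, 24 and 7 calls, and without Bcl6KO stage 0 replicates 1, 2 or 3 there were 277, 65 and 35. Leaving out any 1 of the 3 WT stage 1 libraries, which enter through the shared spread, the scaling and the filter on low counts, gave 41 to 44. Each fit with 1 library left out also tested more genes, 16758 to 16880. The 6 Bcl6KO libraries alone gave 3 calls, and DESeq2's Wald test gave 1309, which included all 106. For this reason the number of the 23 alternatives in which a gene passed is given beside its values.

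**Figure D2:**
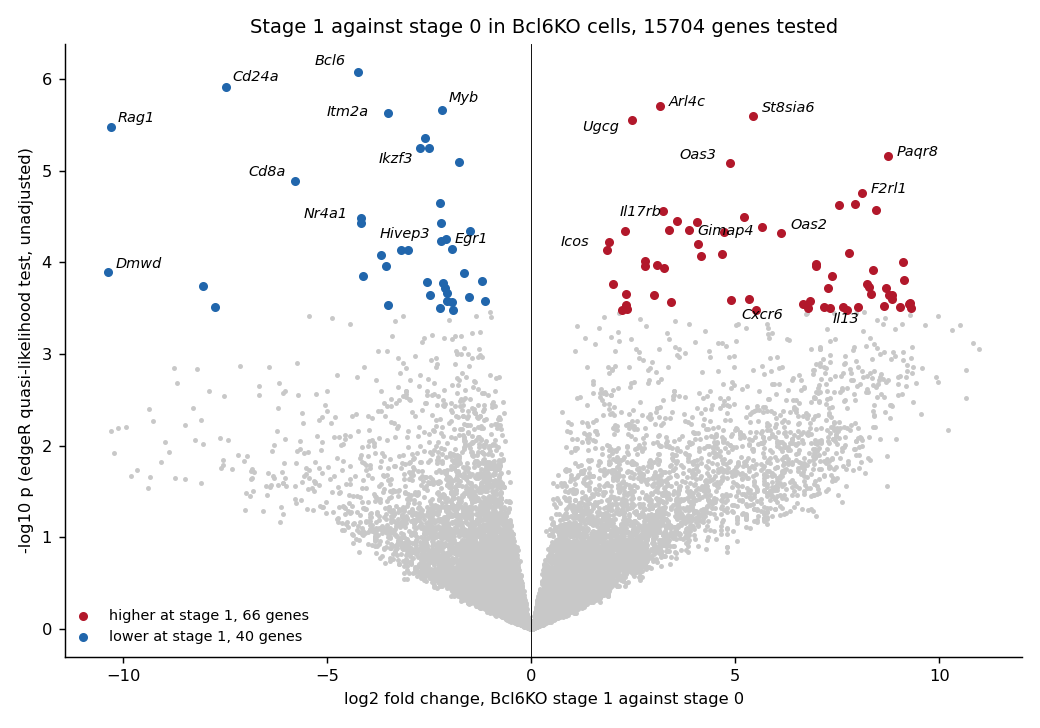
Log2 fold change of Bcl6KO stage 1 against stage 0 (x axis) and -log10 of the unadjusted p of edgeR's quasi-likelihood test (y axis) for each of 15704 genes; coloured points passed an adjusted p of 0.05, 66 higher (red) and 40 lower (blue) at stage 1. Rag1, Cd24a, Bcl6, Myb and Itm2a lead the falls and Arl4c, Ugcg, St8sia6, Oas3 and Paqr8 lead the rises.

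Among genes of antigen receptor rearrangement and of the double-positive stage, those that passed fell. Of 28 tested genes in a list of recombination and pre-selection genes, 5 were called lower and 0 higher, against 0.255% and 0.420% of all genes. The 5 include Cd24a, whose product separated the stages in the sort, so its fall adds nothing to the count as a finding. For 14 of the 28 the stage 1 libraries lay below all stage 0 libraries, against 5.76% of all genes, and the list's median log2 fold change was -1.02, against 0.01 for all genes. Rag1 (chromosome 2, 101638282 to 101649501, minus strand, build GRCm38), a subunit of the recombinase that cuts TCR genes, stood at 128, 129.7 and 339 CPM at stage 0 and 0.199, 0.199 and 0 CPM at stage 1. It was close to absent in every stage 1 library (log2 fold change -10.30, SE 1.36, edgeR adjusted p = 0.00658; passed in 20 of 23 alternatives). Its partner Rag2, chosen after its values were seen, stood at 4.19, 17.3 and 12 CPM at stage 0 and 0.199, 0 and 3.19 CPM at stage 1, also without overlap, and did not pass the test (log2 fold change -3.27, SE 1.51, edgeR adjusted p = 0.313). Dntt, the terminal transferase that adds bases at receptor gene joints, stood at 50.9, 63.7 and 10.6 CPM at stage 0 and 0, 0.398 and 0 CPM at stage 1, with 1 stage 1 library above 0. Its fall passed in 13 of 23 alternatives (log2 fold change -8.05, SE 1.58, edgeR adjusted p = 0.0427).

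Both chains of the CD8 coreceptor fell. Cd8a (chromosome 6, 71373427 to 71379173, plus strand) stood at 80.5, 183 and 158 CPM at stage 0 and 3.38, 0.994 and 3.19 CPM at stage 1, and Cd8b1 at 63.7, 44.9 and 176 CPM at stage 0 and 5.56, 12.1 and 7.19 CPM at stage 1. The stages did not overlap for either gene (Cd8a log2 fold change -5.78, SE 0.86, edgeR adjusted p = 0.0136, 18 of 23; Cd8b1 log2 fold change -3.51, SE 0.72, edgeR adjusted p = 0.0489, 9 of 23). Cd24a, which encodes the antigen used to sort the stages and so checks the sort rather than adding a finding, stood at 313, 261 and 154 CPM at stage 0 and 1.39, 1.79 and 0.799 CPM at stage 1 (log2 fold change -7.49, SE 0.90, edgeR adjusted p = 0.00633). The other gate gene, Cd44, surface-negative at both stages, stood at 0.20, 1.71 and 1.38 CPM at stage 0 and 21.7, 6.56 and 21 CPM at stage 1 and did not pass (log2 fold change 3.87, SE 1.35, edgeR adjusted p = 0.176). Arpp21, a phosphoprotein gene of double-positive thymocytes, was at 324, 407 and 79.5 CPM at stage 0 and 15.1, 49.7 and 15.8 CPM at stage 1, just outside the threshold (log2 fold change -3.33, SE 0.72, edgeR adjusted p = 0.054). Without Bcl6KO stage 1 replicates 1, 2 or 3 the 5 calls of this list became 1, 2 and 1, with Cd24a among them each time.

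The summed level of 12 double-positive thymocyte markers, which include Rag1, Dntt, Cd8a and Cd8b1, lay between 1230 and 1330 CPM at stage 0 and between 311 and 338 CPM at stage 1. All 12 were counted in Bcl6KO cells, and no marker was at 0 throughout either stage. Of the 12, 4 were called lower and 9 had separate libraries in that direction, against 0.255% and 5.76% of all genes. The 4 calls became 0, 1 and 0 without Bcl6KO stage 1 replicates 1, 2 or 3, and 2 without WT stage 1 replicate 2. What part double-positive cells within the stage 0 sort had in these falls was not tested.

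Among genes induced by TCR signalling, those that passed fell as well. Of 32 tested TCR response genes 9 were separate and lower and 3 separate and higher, against 5.76% and 11.8% of all genes. The median log2 fold change was -0.99. Of the 32, 5 were called lower and 0 higher, against 0.255% and 0.420% of all genes. The 5 were Itm2a, Nr4a1, Egr1, Egr2 and Bcl2l11. Nr4a1 (chromosome 15, 101254269 to 101274795, plus strand) encodes NUR77, an orphan nuclear receptor made within hours of antigen recognition and used as a reporter of TCR signal strength. It stood at 78.7, 136 and 85.8 CPM at stage 0 and 3.18, 5.37 and 8.19 CPM at stage 1. Each stage 1 library held less than any stage 0 library (log2 fold change -4.16, SE 0.68, edgeR adjusted p = 0.0218, 17 of 23).

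The promoter of Nr4a1 is shown because it carries several copies of the element through which the gene is known to answer cyclic AMP signals. The 250 bases before the RefSeq start (GRCm38.p6, chr15:101266596-101266845, plus strand) hold 4 copies of TGCGTCA, the letters of a cyclic AMP response element-like site, given in capitals. Both strands were searched, and 1.75% of 32851 RefSeq promoters of the same length hold at least 1 copy. The motifs used here and below were chosen after the sequences were seen, and a match describes letters only.
Nr4a1: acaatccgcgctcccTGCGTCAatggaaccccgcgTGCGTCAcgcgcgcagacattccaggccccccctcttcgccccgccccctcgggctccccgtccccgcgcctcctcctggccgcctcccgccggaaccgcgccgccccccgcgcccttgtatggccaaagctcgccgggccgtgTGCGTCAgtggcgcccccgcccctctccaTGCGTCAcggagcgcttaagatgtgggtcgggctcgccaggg

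Egr1 and Egr2 are immediate early zinc-finger regulators, and EGR2 is required for iNKT cells to mature. Egr1 stood at 1001, 829 and 1002 CPM at stage 0 and 156, 253 and 254 CPM at stage 1, and Egr2 at 437, 388 and 469 CPM at stage 0 and 91, 157 and 89.8 CPM at stage 1. At stage 1 both were still well above 0, and the stages did not overlap (Egr1 log2 fold change -2.10, SE 0.36, edgeR adjusted p = 0.0253, 16 of 23; Egr2 log2 fold change -1.94, SE 0.34, edgeR adjusted p = 0.0278, 16 of 23). Itm2a, a membrane protein gene induced at positive selection, stood at 771, 301 and 922 CPM at stage 0 and 44.9, 88.2 and 40.7 CPM at stage 1 (log2 fold change -3.52, SE 0.45, edgeR adjusted p = 0.00633, 20 of 23). Bcl2l11 encodes BIM, the BH3-only protein that kills strongly signalled thymocytes, and stood at 224, 182 and 310.1 CPM at stage 0 and 37.9, 13.5 and 27 CPM at stage 1 (log2 fold change -3.19, SE 0.57, edgeR adjusted p = 0.0278, 15 of 23). Cd69, an early activation antigen, went the same way without passing, at 213, 169 and 300.3 CPM at stage 0 and 22, 32.8 and 26.8 CPM at stage 1 (log2 fold change -3.06, SE 0.76, edgeR adjusted p = 0.0831). None of the 32 genes was called without Bcl6KO stage 1 replicates 1 or 3, and without Bcl6KO stage 1 replicate 2 or stage 0 replicate 3 there were 2 calls; without Bcl6KO stage 0 replicate 1, 1 rise was called.

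In the signalling machinery itself calls were few. Of 31 tested genes of the TCR signalling machinery 1 was called, against 0.675% of all genes. The called gene was Rasgrp1, which loads RAS with GTP downstream of the receptor. It stood at 1034, 602 and 872 CPM at stage 0 and 276, 357 and 172 CPM at stage 1 (log2 fold change -1.64, SE 0.31, edgeR adjusted p = 0.0361, 12 of 23). In the same list 9 genes were separate and lower and 1 was separate and higher, against 5.76% and 11.8% of all genes. The list's median was -0.41. SLAM family receptors and adaptors give the second signal between double-positive cells and are needed for iNKT cells. Of 8 tested, 0 were called and 1 was separate and lower, against 0.675% and 5.76% of all genes. Their median was -0.54.

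Among transcription regulators of early iNKT cells, 14 of 28 tested genes were separate and lower and 2 separate and higher, against 5.76% and 11.8% of all genes. The median was -0.86. Of the 28, 5 were called lower and 0 higher, against 0.255% and 0.420% of all genes. Beside Egr2 the called genes were Myb, Ikzf3, Hivep3 and Gfi1. Myb, which keeps double-positive thymocytes alive long enough to rearrange the invariant TCR, stood at 941, 732 and 595 CPM at stage 0 and 141, 197 and 158 CPM at stage 1. The stage 1 libraries were close to each other and far below stage 0 (log2 fold change -2.19, SE 0.28, edgeR adjusted p = 0.00633, 20 of 23), and 6.26% of its exonic bases overlap another gene. Ikzf3, the zinc-finger protein Aiolos, stood at 934, 1949.6 and 964 CPM at stage 0 and 225, 168 and 289 CPM at stage 1 (log2 fold change -2.50, SE 0.35, edgeR adjusted p = 0.00818, 20 of 23). Gfi1, a zinc-finger repressor of thymocyte genes, stood at 157, 204 and 164 CPM at stage 0 and 23.4, 9.14 and 31.5 CPM at stage 1 (log2 fold change -3.03, SE 0.54, edgeR adjusted p = 0.0278, 14 of 23). Hivep3, a large zinc-finger protein gene, was at 5903, 8677 and 7920.4 CPM at stage 0 and 894, 1772 and 2227 CPM at stage 1 (log2 fold change -2.20, SE 0.38, edgeR adjusted p = 0.0256, 16 of 23). Without Bcl6KO stage 1 replicates 1 or 3 the 5 calls became 0 and 1, and without Bcl6KO stage 0 replicate 3 or stage 1 replicate 2 they became 3. Without Bcl6KO stage 0 replicates 1 or 2, 1 rise was called as well.

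Zbtb16, whose product PLZF directs the innate-like programme, did not pass, though each stage 1 library held more than any stage 0 library. It stood at 94.6, 8.72 and 48.2 CPM at stage 0 and 322, 305 and 440.4 CPM at stage 1, with a wide stage 0 spread (log2 fold change 2.81, SE 0.62, edgeR adjusted p = 0.0571). Hhex, a homeobox regulator chosen after its values were seen, was called higher, at 1.6, 1.14 and 1.77 CPM at stage 0 and 36.4, 19.1 and 65.5 CPM at stage 1 (log2 fold change 4.72, SE 0.80, edgeR adjusted p = 0.0221, 14 of 23). Gata3, which supports helper and NKT2 fates and was also chosen that way, overlapped between the stages at 287, 389 and 384 CPM at stage 0 and 217, 254 and 319 CPM at stage 1 (log2 fold change -0.43, SE 0.27, edgeR adjusted p = 0.476). Maf, a leucine zipper regulator of NKT17 and follicular programmes, stood at 1.2, 3.22 and 1.77 CPM at stage 0 and 82.4, 61.8 and 142 CPM at stage 1. Every stage 1 library was far above stage 0, yet the call passed in only 7 of 23 alternatives (log2 fold change 5.51, SE 1.15, edgeR adjusted p = 0.0496), and 5.34% of its exonic bases overlap another gene.

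Bcl6 itself (chromosome 16, 23965052 to 23988852, minus strand) fell in the Bcl6KO libraries. It stood at 511, 657 and 652 CPM at stage 0 and 14.7, 56 and 25.2 CPM at stage 1, with no overlap (log2 fold change -4.25, SE 0.49, edgeR adjusted p = 0.00633, 22 of 23). In WT it went from 288 ± 78.9 to 7.18 ± 2.63 CPM (mean ± SD, n = 3), a log2 fold change of -5.32 (edgeR adjusted p = 0.000961), and the fall did not pass a test of difference between genotypes (difference 1.08, SE 0.62, edgeR adjusted p = 0.727). The Bcl6KO libraries held more Bcl6 than any WT library of the same stage, at 607 ± 83 against 288 ± 78.9 CPM at stage 0 and 32 ± 21.5 against 7.18 ± 2.63 CPM at stage 1, a contrast that was not tested. The level over the whole gene thus gives no check of the deletion. Of 26 tested genes described as repressed by BCL6 in T or B cells, 0 were called, against 0.675% of all genes, and the median was 0.32. Of these, 10 were separate and higher and 4 separate and lower, against 11.8% and 5.76% of all genes. Of 16 BCL6 corepressor genes 0 were called, and their median was 0.01. Of the 26, 2 had no count at stage 0.

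**Figure D3:**
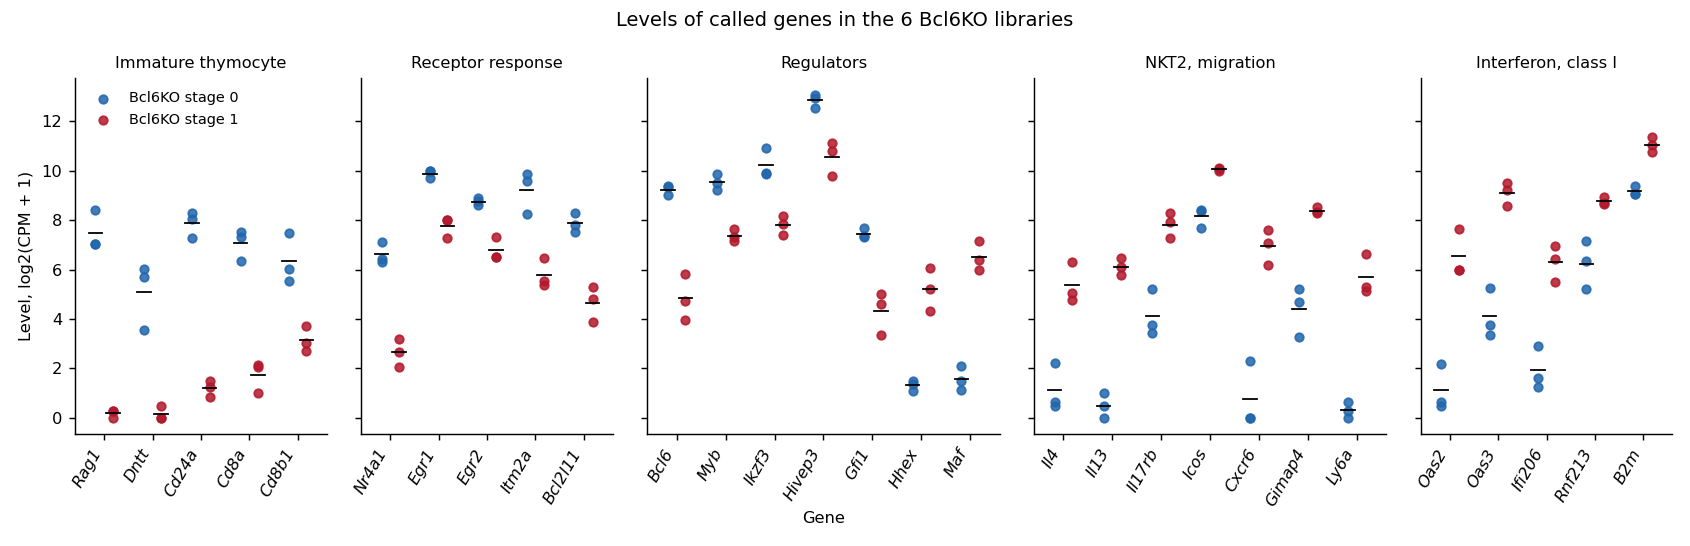
Level, as log2(CPM + 1), of 29 called genes in the 3 Bcl6KO stage 0 libraries (blue) and the 3 Bcl6KO stage 1 libraries (red), grouped by role; bars are the means of 3 libraries on that scale. In each gene shown the stage 0 and stage 1 points do not overlap.

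Both type 2 cytokine genes rose, with Il17rb and Icos. Of 17 tested NKT2 effector genes 4 were called higher, Il4, Il13, Il17rb and Icos, and 1 lower, Egr2, against 0.420% and 0.255% of all genes. In this list 8 genes were separate and higher and 1 separate and lower, against 11.8% and 5.76% of all genes. The list's median was 0.43, against 0.01 for all genes. Il4 (chromosome 11, 53602982 to 53618669, minus strand) and Il13 (chromosome 11, 53631324 to 53634702, minus strand) encode the neighbouring type 2 cytokines. Il4 stood at 3.59, 0.569 and 0.394 CPM at stage 0 and 26.4, 32.4 and 77.5 CPM at stage 1, and Il13 at 0.998, 0 and 0.394 CPM at stage 0 and 87.8, 53.9 and 67.7 CPM at stage 1. All 3 stage 1 libraries were above every stage 0 library for both cytokines. The calls were among the least stable (Il4 log2 fold change 4.88, SE 0.99, edgeR adjusted p = 0.0489, 9 of 23; Il13 log2 fold change 7.17, SE 1.49, edgeR adjusted p = 0.0489, 9 of 23).

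Their promoters are shown because both cytokines are known targets of NFAT, the factor that calcium releases from the cytoplasm. In the 250 bases before the RefSeq start (GRCm38.p6, minus strand; Il4 chr11:53618666-53618915, the outer of 2 starts; Il13 chr11:53634703-53634952), the NFAT core letters GGAAA, or TTTCC on the other strand, occur 5 times in Il4 and 4 times in Il13 and are given in capitals. The core is short, and 55.6% of 32851 RefSeq promoters of that length hold it.
Il4: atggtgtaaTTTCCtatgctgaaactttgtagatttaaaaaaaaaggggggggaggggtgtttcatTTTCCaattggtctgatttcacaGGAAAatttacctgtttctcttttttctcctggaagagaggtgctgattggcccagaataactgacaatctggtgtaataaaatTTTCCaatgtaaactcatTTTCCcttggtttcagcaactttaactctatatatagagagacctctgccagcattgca
Il13: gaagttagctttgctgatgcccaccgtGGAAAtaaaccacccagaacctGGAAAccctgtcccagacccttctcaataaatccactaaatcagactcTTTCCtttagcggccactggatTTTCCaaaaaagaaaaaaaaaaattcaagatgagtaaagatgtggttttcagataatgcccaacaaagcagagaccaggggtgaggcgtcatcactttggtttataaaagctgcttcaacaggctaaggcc

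Il17rb, a subunit of the receptor for interleukin 25, stood at 36.5, 9.67 and 12.6 CPM at stage 0 and 240.3, 154 and 309 CPM at stage 1 (log2 fold change 3.58, SE 0.59, edgeR adjusted p = 0.0218, 17 of 23). Icos, a costimulatory receptor that iNKT cells need for survival and cytokine production, stood at 207, 343 and 331 CPM at stage 0 and 1073, 1007 and 1117 CPM at stage 1 with little spread at stage 1 (log2 fold change 1.86, SE 0.33, edgeR adjusted p = 0.0278, 14 of 23). Plac8, of the same list and chosen after its values were seen, was at 2, 4.36 and 5.91 CPM at stage 0 and 47.1, 37.8 and 55.9 CPM at stage 1 and just missed the threshold (log2 fold change 3.51, SE 0.76, edgeR adjusted p = 0.0545). Without Bcl6KO stage 1 replicates 1 or 3, or stage 0 replicate 3, none of these rises passed. Without Bcl6KO stage 1 replicate 2, or WT stage 1 replicates 2 or 3, 1 passed, and without WT stage 1 replicate 1, 2 passed.

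NKT1 genes were low and varied. None of 17 tested NKT1 effector genes was called, against 0.675% of all genes, and 5 had no count in any stage 0 library. Of the 17, 8 were separate and higher and 0 separate and lower, against 11.8% and 5.76% of all genes. The list's median of 2.67 ran from 0.73 to 5.44 over the alternatives. It was 1.65 with the genes without counts set to the lowest change that 3 counts per library allow. Tbx21, which encodes the NKT1 regulator T-bet, was at 0, 0 and 0 CPM at stage 0 and 9.14, 1.99 and 9.18 CPM at stage 1. Taking 3 counts as the most that could hide behind each 0, the stage 1 mean was at least 11.6-fold higher, without passing the test (edgeR adjusted p = 0.154). Such folds here and below set the mean of 3 libraries against that floor, and a single library can lie nearer to it. The floor covers counting error only, and the stage 0 libraries detected fewer genes than the stage 1 libraries. Il2rb, the interleukin 15 receptor chain of NKT1 cells, overlapped between the stages at 166, 517 and 41.5 CPM at stage 0 and 253, 384 and 418 CPM at stage 1 (log2 fold change 0.54, SE 0.61, edgeR adjusted p = 0.717).

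Of 14 tested NKT17 genes 1 was called, Maf, against 0.675% of all genes, and the median was 0.01. The follicular helper list had calls both ways and a median of -0.68. Among 21 tested genes Icos and Maf were called higher and Bcl6 and Il21r lower, against 0.420% and 0.255% of all genes. Of the 21, 2 were separate and higher and 6 separate and lower, against 11.8% and 5.76% of all genes. The log2 fold change was positive for 6 of the 21, against 50.5% of all genes. With 1 library left out, 0 to 2 rises and 1 to 2 falls of this list passed. Il21r, the interleukin 21 receptor, stood at 207, 296 and 275 CPM at stage 0 and 48.3, 82.5 and 42.5 CPM at stage 1 (log2 fold change -2.17, SE 0.42, edgeR adjusted p = 0.0415, 10 of 23).

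Beyond interleukins 4 and 13, 2 genes in the list of cytokines and growth factors rose, Csf1 and Hbegf. Of 14 tested genes these 4 were called higher and 0 lower, against 0.420% and 0.255% of all genes. In the list 6 were separate and higher, against 11.8% of all genes, and the median was 1.06. Csf1, the macrophage colony-stimulating factor, stood at 1.4, 0 and 0 CPM at stage 0 and 88.2, 37.8 and 98.8 CPM at stage 1 (log2 fold change 7.27, SE 1.43, edgeR adjusted p = 0.0427, 12 of 23). Hbegf, a membrane-bound ligand of the epidermal growth factor receptor, was at 0, 0 and 0 CPM at stage 0 and 10.9, 9.54 and 24.8 CPM at stage 1, at least 25.7-fold higher at stage 1 (edgeR adjusted p = 0.0489, 7 of 23). With no count in any stage 0 library, the Hbegf value is a lower bound on the change of the mean as far as counting error goes. Without any 1 of Bcl6KO stage 0 replicates 2 and 3, Bcl6KO stage 1 replicates 1, 2 and 3 and WT stage 1 replicates 1 and 3, 0 of these 4 passed, without WT stage 1 replicate 2 it was 1, and without WT stage 0 replicate 1 it was 2.

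The chemokine receptor genes Cxcr6 and Ccr10 rose. Of 17 tested chemokine receptors and ligands 2 were called higher, against 0.420% of all genes. Of the 17, 7 were separate and higher and 2 separate and lower, against 11.8% and 5.76% of all genes. The median was 3.10, with 0.42 to 3.85 over the alternatives. In this list 6 genes had no count at stage 0, and with these at their lower bounds the median was 0.45. Cxcr6, which holds iNKT cells in the liver and marks their mature stages, stood at 0, 0 and 3.94 CPM at stage 0 and 195, 71 and 136 CPM at stage 1 (log2 fold change 6.65, SE 1.37, edgeR adjusted p = 0.0489, 8 of 23). Of the stage 0 libraries, replicate 3 had counts and the other two had none. Ccr10, a receptor for skin-homing chemokines, was at 0, 0 and 0 CPM at stage 0 and 8.14, 14.1 and 2.4 CPM at stage 1. By the mean it was at least 14-fold higher at stage 1 (edgeR adjusted p = 0.0348, 11 of 23). Ccr2 was at 11.8, 84.4 and 18.3 CPM at stage 0 and 480.1, 226 and 279.5 CPM at stage 1 and did not pass (log2 fold change 3.10, SE 0.81, edgeR adjusted p = 0.0939). No chemokine gene of the list passed as higher without any 1 of the 3 Bcl6KO stage 1 or the 3 WT stage 1 libraries, and without Bcl6KO stage 0 replicates 2 or 3 or WT stage 0 replicate 1 there was 1.

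Of 31 tested genes of mature single-positive cells and thymic egress 2 were called higher and 0 lower, against 0.420% and 0.255% of all genes. Of the 31, 11 were separate and higher and 2 separate and lower, against 11.8% and 5.76% of all genes. The median was 1.17. Gimap4, a lymphocyte GTPase that comes on after positive selection, stood at 35.9, 8.72 and 24.6 CPM at stage 0 and 369, 313 and 319.8 CPM at stage 1 (log2 fold change 3.85, SE 0.65, edgeR adjusted p = 0.0221, 16 of 23). It was the only called gene among 8 tested GIMAP GTPases, against 0.675% of all genes. Ly6a, the antigen Sca-1, stood at 0.20, 0.569 and 0 CPM at stage 0 and 97.5, 33.6 and 38.5 CPM at stage 1 (log2 fold change 7.64, SE 1.58, edgeR adjusted p = 0.0489, 9 of 23). S1pr1, the receptor that leads thymocytes out into blood and was chosen after its values were seen, was at 18.2, 0.569 and 0.984 CPM at stage 0 and 86.2, 108 and 90.0 CPM at stage 1 with no overlap and did not pass (log2 fold change 3.84, SE 1.16, edgeR adjusted p = 0.131). Klf2, which drives S1pr1 transcription and was also chosen that way, overlapped between the stages at 94.6, 0 and 14.4 CPM at stage 0 and 33.4, 88 and 51.5 CPM at stage 1 (log2 fold change 0.67, SE 1.38, edgeR adjusted p = 0.859). Of the list, none passed as higher without Bcl6KO stage 0 replicate 3 or any 1 of the 3 Bcl6KO stage 1 libraries, 1 passed without any 1 of the WT stage 1 libraries, and 4 without WT stage 0 replicate 3.

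Among interferon-stimulated genes Oas3 and Oas2 rose. Of 44 tested genes these 2 were called higher and 0 lower, against 0.420% and 0.255% of all genes. The stage 1 libraries lay above all stage 0 libraries for 23, against 11.8% of all genes, and below for 1. The log2 fold change was positive for 38 of 44 with a median of 1.59, which ran from 1.23 to 2.52 over the alternatives and was 1.47 with the 3 genes without stage 0 counts at their lower bounds. By summed level the list ran the other way, because it holds Sp100, its most abundant member. The sum lay between 121554 and 366802 CPM at stage 0 and between 4101 and 39933 CPM at stage 1, and for the other 43 genes between 1502 and 2052 CPM at stage 0 and between 3747 and 4916 CPM at stage 1. Oas3 and Oas2 encode synthetases that make the oligoadenylates that switch on RNase L. Oas3 (chromosome 5, 120753098 to 120777661, minus strand) stood at 12.6, 9.1 and 36.6 CPM at stage 0 and 376, 724 and 598 CPM at stage 1 (log2 fold change 4.86, SE 0.70, edgeR adjusted p = 0.00921, 20 of 23). Oas2, its neighbour on the chromosome, stood at 0.399, 0.569 and 3.54 CPM at stage 0 and 61.8, 196 and 62.7 CPM at stage 1 (log2 fold change 6.13, SE 1.04, edgeR adjusted p = 0.0221, 16 of 23). At stage 1 replicate 2 was the highest for both. Ifit3, chosen after its values were seen and with no count at stage 0, was at 0, 0 and 0 CPM at stage 0 and 41.3, 7.35 and 11.2 CPM at stage 1, at least 34-fold higher at stage 1, and did not pass (edgeR adjusted p = 0.0559). The 2 calls became 1, 1 and 0 without Bcl6KO stage 1 replicates 1, 2 or 3, without Bcl6KO stage 0 replicates 1 or 2 they became 4 and 1, and without WT stage 0 replicates 2 or 3 they became 4 and 6.

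The Oas3 promoter is shown for the element through which interferon is known to act. In the 250 bases before the RefSeq start (GRCm38.p6, chr5:120777660-120777909, minus strand), the letters of an interferon-stimulated response element, GAAA, any 2 bases, then GAAA, occur once, in capitals. Searched on both strands, it is held by 2.98% of 32851 RefSeq promoters of that length, and the Il4 promoter printed above also holds 1 copy, which can share letters with GGAAA.
Oas3: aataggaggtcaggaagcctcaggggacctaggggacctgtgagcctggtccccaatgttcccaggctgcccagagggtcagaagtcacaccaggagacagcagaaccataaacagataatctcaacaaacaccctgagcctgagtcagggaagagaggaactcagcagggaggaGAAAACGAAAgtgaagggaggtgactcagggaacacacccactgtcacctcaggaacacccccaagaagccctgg

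Of 22 tested genes of MHC class I presentation 1 was called, B2m, against 0.675% of all genes. Of the 22, 10 were separate and higher and 1 separate and lower, against 11.8% and 5.76% of all genes. The median was 1.03. B2m, which encodes the shared light chain of class I and CD1d molecules, stood at 660.0, 531 and 536 CPM at stage 0 and 1732, 2642 and 2104 CPM at stage 1 (log2 fold change 1.91, SE 0.33, edgeR adjusted p = 0.0256, 14 of 23). H2-K1, a class I heavy chain chosen after its values were seen, was at 104, 243 and 164 CPM at stage 0 and 585, 767 and 653 CPM at stage 1 and did not pass (log2 fold change 1.97, SE 0.58, edgeR adjusted p = 0.121). Cd1d1, which encodes the molecule that presents lipids to iNKT cells and was also chosen that way, overlapped between the stages at 25, 14 and 62 CPM at stage 0 and 26.4, 10.9 and 20.2 CPM at stage 1 (log2 fold change -0.81, SE 0.68, edgeR adjusted p = 0.603). Traf1, an adaptor of tumour necrosis factor receptors, was the only call among 24 tested NF-kB pathway genes, against 0.675% of all genes. It stood at 0.998, 0.569 and 1.38 CPM at stage 0 and 56, 36 and 60.9 CPM at stage 1 (log2 fold change 5.66, SE 0.95, edgeR adjusted p = 0.0221, 15 of 23). Tlr1, a Toll-like receptor subunit for lipopeptides, stood at 0.599, 0 and 0.788 CPM at stage 0 and 84, 135 and 21.6 CPM at stage 1 (log2 fold change 7.38, SE 1.40, edgeR adjusted p = 0.0377, 10 of 23).

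A few called genes that act on lipids and sugars, picked from no fixed list, went both ways. Ugcg (chromosome 4, 59189257 to 59222833, plus strand), chosen after its values were seen, encodes the ceramide glucosyltransferase that makes glucosylceramide, the root of most glycosphingolipids. It stood at 147, 278 and 173 CPM at stage 0 and 1203, 1066 and 1051 CPM at stage 1. Its rise passed in 22 of 23 alternatives (log2 fold change 2.47, SE 0.32, edgeR adjusted p = 0.00633). St8sia6 (chromosome 2, 13651021 to 13794064, minus strand), a sialyltransferase gene, stood at 7.39, 2.65 and 2.17 CPM at stage 0 and 160.3, 227 and 142 CPM at stage 1 (log2 fold change 5.43, SE 0.70, edgeR adjusted p = 0.00633, 21 of 23). Alg14, which takes part in building the N-glycan precursor, was at 0, 0 and 0 CPM at stage 0 and 32.4, 9.94 and 3.39 CPM at stage 1. By the mean it was at least 26-fold higher at stage 1 (edgeR adjusted p = 0.0489, 7 of 23). In WT it overlapped between the stages, at 6.04 ± 6.53 and 8.02 ± 1.63 CPM. It was the only call among 31 tested protein glycosylation genes, against 0.675% of all genes, and the median of that list was 0.30. Of called genes that act on sugars, 2 fell. Hs2st1, a sulfotransferase of heparan sulfate, stood at 196, 153 and 218 CPM at stage 0 and 41.1, 49.3 and 29.3 CPM at stage 1 (log2 fold change -2.24, SE 0.47, edgeR adjusted p = 0.0489, 6 of 23). Siae, a sialic acid acetylesterase gene chosen after its values were seen, stood at 435, 202 and 302 CPM at stage 0 and 62, 95.4 and 92.8 CPM at stage 1 (log2 fold change -1.91, SE 0.40, edgeR adjusted p = 0.0496, 5 of 23).

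Called falls included genes of the endoplasmic reticulum. Edem1, which directs misfolded glycoproteins to degradation, stood at 302, 412 and 554 CPM at stage 0 and 56.4, 113 and 102 CPM at stage 1 (log2 fold change -2.22, SE 0.35, edgeR adjusted p = 0.0195, 18 of 23). Atf6, a membrane-bound sensor of the unfolded protein response, stood at 329, 329 and 599 CPM at stage 0 and 128, 62.8 and 78.5 CPM at stage 1 (log2 fold change -2.22, SE 0.37, edgeR adjusted p = 0.0218, 17 of 23). Of 34 tested secretory pathway genes these 2 were called lower and 1 higher, against 0.255% and 0.420% of all genes. Of the 34, 4 were separate and higher and 2 separate and lower, against 11.8% and 5.76% of all genes. The median was 0.00. The called rise was Ckap4, a reticulum sheet protein gene. Ckap4 was at 0, 0 and 0 CPM at stage 0 and 5.36, 4.97 and 36.5 CPM at stage 1, at least 26.7-fold higher at stage 1, and 1 stage 1 library held most of it (edgeR adjusted p = 0.0489, 7 of 23). In WT it overlapped between the stages, at 14.04 ± 10.63 and 8.998 ± 3.27 CPM.

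Growth and energy genes gave no calls in the edgeR test. None of 34 tested DNA replication genes, 31 mitosis genes, 21 glycolysis genes, 36 nuclear oxidative phosphorylation genes and 58 cytosolic ribosomal protein genes passed. The median log2 fold changes were 0.09, 0.13, -0.08, -0.30 and 0.06, against 0.01 for all genes. In the oxidative phosphorylation list 12 of 36 genes had a positive fold change, against 50.5% of all genes, and the median ran from -0.34 to -0.05 over the alternatives. Of the 21 glycolysis genes 4 were separate and lower, against 5.76% of all genes, and 1 was separate and higher. At an unadjusted p under 0.05 the edgeR test counted 2577 genes in all. Mki67, a proliferation marker, overlapped between the stages at 1491, 2250.1 and 1794 CPM at stage 0 and 1294, 3177 and 2354 CPM at stage 1 (log2 fold change 0.30, SE 0.38, edgeR adjusted p = 0.747). Mitochondrially encoded genes were not analysed here.

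**Figure D4:**
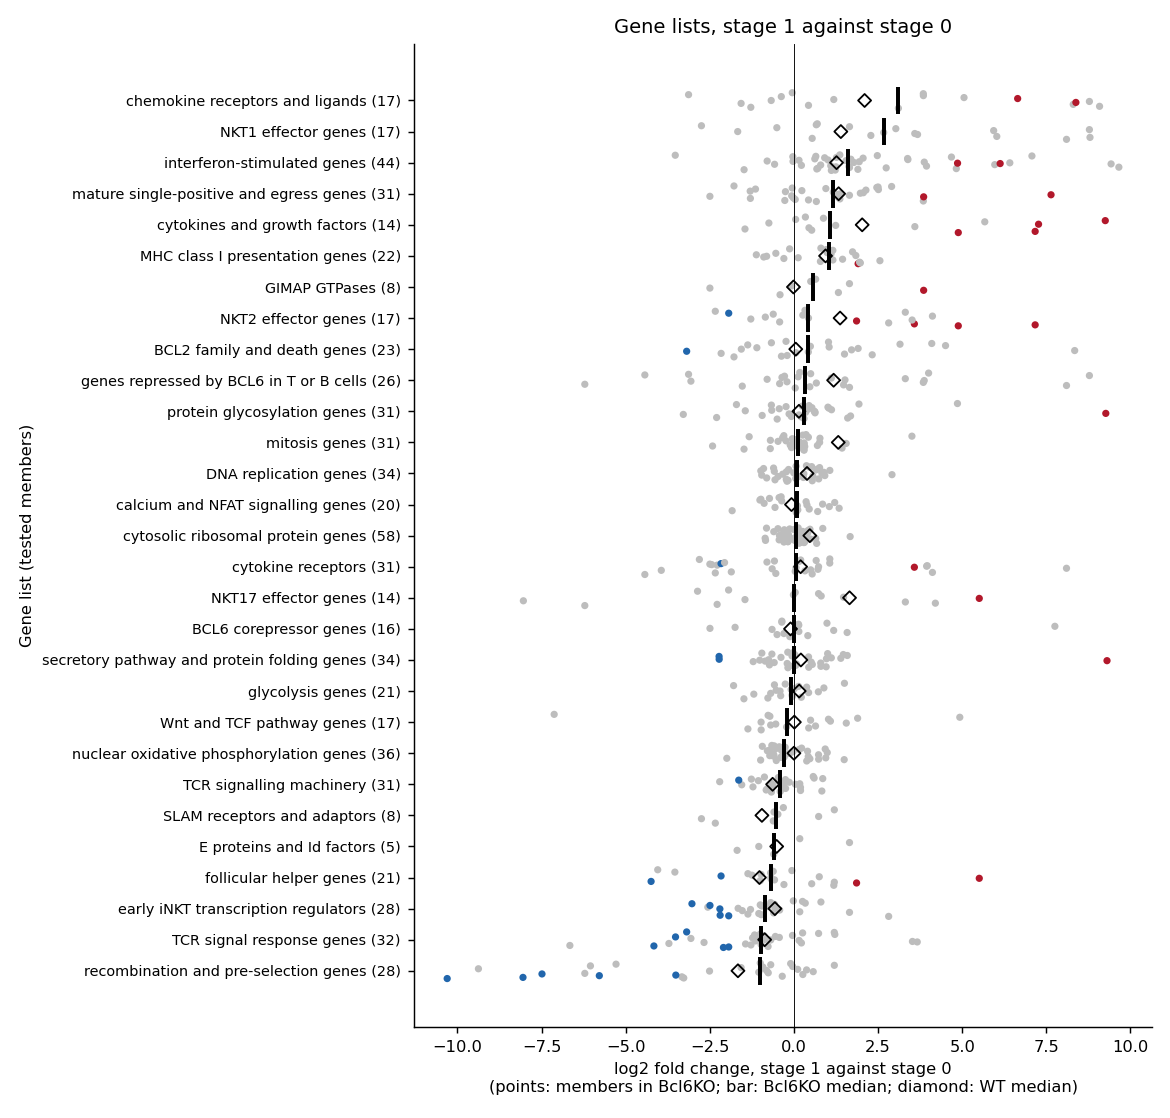
Log2 fold change of stage 1 against stage 0 in Bcl6KO for each tested member (points) of 29 gene lists, with called members in red (higher) or blue (lower); the bar is the Bcl6KO median and the open diamond the WT median, and the number of tested members stands in brackets. Recombination and TCR response lists lie lowest of the 29, with medians of -1.02 and -0.99. The NKT1, interferon and chemokine lists have medians of 2.67, 1.59 and 3.10, or 1.65, 1.47 and 0.45 with genes without stage 0 counts at their lower bounds.

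Other called genes belong to no list above. Arl4c (chromosome 1, 88673125 to 88702221, minus strand), a small GTPase of the ARF family chosen after its values were seen, stood at 51.7, 37.9 and 39 CPM at stage 0 and 252, 489.5 and 404 CPM at stage 1 (log2 fold change 3.15, SE 0.40, edgeR adjusted p = 0.00633, 21 of 23). Inpp4b, a phosphatase of phosphoinositides chosen the same way, stood at 189.7, 183 and 89.4 CPM at stage 0 and 809, 840.1 and 636 CPM at stage 1 (log2 fold change 2.31, SE 0.39, edgeR adjusted p = 0.0221, 16 of 23). Both rises were clear of overlap. Paqr8, a membrane progestin receptor gene, stood at 0.20, 0 and 0 CPM at stage 0 and 27.2, 45.9 and 42.5 CPM at stage 1 (log2 fold change 8.74, SE 1.23, edgeR adjusted p = 0.0091, 20 of 23). F2rl1, the protease-activated receptor PAR2, stood at 0, 0.569 and 0.394 CPM at stage 0 and 14.3, 161 and 109 CPM at stage 1 (log2 fold change 8.09, SE 1.24, edgeR adjusted p = 0.0171, 18 of 23), and stage 1 replicate 1 was well below the other two. Celsr2, an adhesion receptor of the cadherin family, fell, at 56.3, 182 and 225 CPM at stage 0 and 7.15, 13.7 and 4.59 CPM at stage 1 (log2 fold change -4.18, SE 0.69, edgeR adjusted p = 0.0218, 16 of 23). Dmwd, of which stage 1 held no count, fell, at 6.99, 67.5 and 23.2 CPM at stage 0 and 0, 0 and 0 CPM at stage 1, at least 54.6-fold lower at stage 1 (edgeR adjusted p = 0.0357, 11 of 23). Maml2, a coactivator of Notch, stood at 212, 327 and 106 CPM at stage 0 and 61, 46.5 and 46.3 CPM at stage 1 (log2 fold change -2.07, SE 0.41, edgeR adjusted p = 0.0469, 9 of 23).

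Markers of other cell types moved with the stages in part. Conventional and regulatory T cells carry the TCR beta chain of the gate. The summed level of 8 conventional CD8 T cell markers lay between 213 and 496 CPM at stage 0 and between 60.4 and 122 CPM at stage 1, and of 6 tested only Cd8a and Cd8b1 were called, both lower. That of 9 regulatory T cell markers lay between 687 and 1070 CPM at stage 0 and between 387 and 532 CPM at stage 1, with 0 of 8 tested called. Their defining gene Foxp3, chosen after its values were seen, overlapped at 3.39, 0 and 0.984 CPM at stage 0 and 1.99, 0.994 and 7.19 CPM at stage 1. The types below lack surface TCR beta, which the gate required. The summed level of 9 gamma-delta T cell markers found in the files lay between 13.5 and 186 CPM at stage 0 and between 829 and 1190 CPM at stage 1, with Gpr25 at 0 in all 6 libraries. Of 8 tested, 6 were separate and higher, against 11.8% of all genes, and Maf was called. Trdc, the delta chain constant gene that defines those cells, was at 44.5, 0 and 74.2 CPM at stage 0 and 0.795, 0.199 and 17.6 CPM at stage 1, while the gamma chain gene Tcrg-C2 was at 7.59, 5.88 and 3.94 CPM at stage 0 and 209, 224 and 237 CPM at stage 1. Both were chosen after their values were seen, and Trdc overlapped between the stages. Myeloid and dendritic markers summed to 53.2 to 133 CPM at stage 0 and 313 to 528 CPM at stage 1, of which Ccr2 made up most at stage 1. Of the 18 myeloid and dendritic markers 13 were counted in Bcl6KO cells, while Adgre1, Clec9a, Cd14, S100a8 and S100a9 were at 0 in all 6 libraries. Natural killer cell markers summed to 0.569 to 12 CPM and 17.2 to 42.5 CPM, with 9 of 11 counted and Ncr1 and Klra8 at 0 in all 6. B cell markers summed to 84.3 to 218 CPM and 48.5 to 134 CPM. All 15 were counted in Bcl6KO cells, and Ms4a1 and Blnk were at 0 at stage 1. Stromal markers summed to 237 to 1620 CPM and 189 to 242 CPM, with 9 of 15 counted and Krt5, Krt8, Col1a2, Pdgfra, Cdh5 and Dcn at 0 in all 6. What part such cells had in the changes above was not tested.

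The same passage in WT cells called 68 genes (0.433%), and 21.5% of genes had separate libraries. Both genotypes called 30 genes, all in the same direction, which is 28.3% of the Bcl6KO calls and 44.1% of the WT calls. Of these 21 were lower and 9 higher at stage 1. The stage contrasts share no library. Of the 66 Bcl6KO rises 61 had the same sign in WT, and of the 40 falls 38 did. The share of all genes with the same sign in both was not counted, so how far these exceed it is not known. No gene passed the test of whether the stage effect differed between genotypes (0 of 15704, 0%), although 1221 genes had an unadjusted p under 0.05 in that edgeR test and DESeq2 called 100 with a positive and 30 with a negative difference. Effects called in Bcl6KO and not in WT are therefore not shown to differ.

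**Figure D5:**
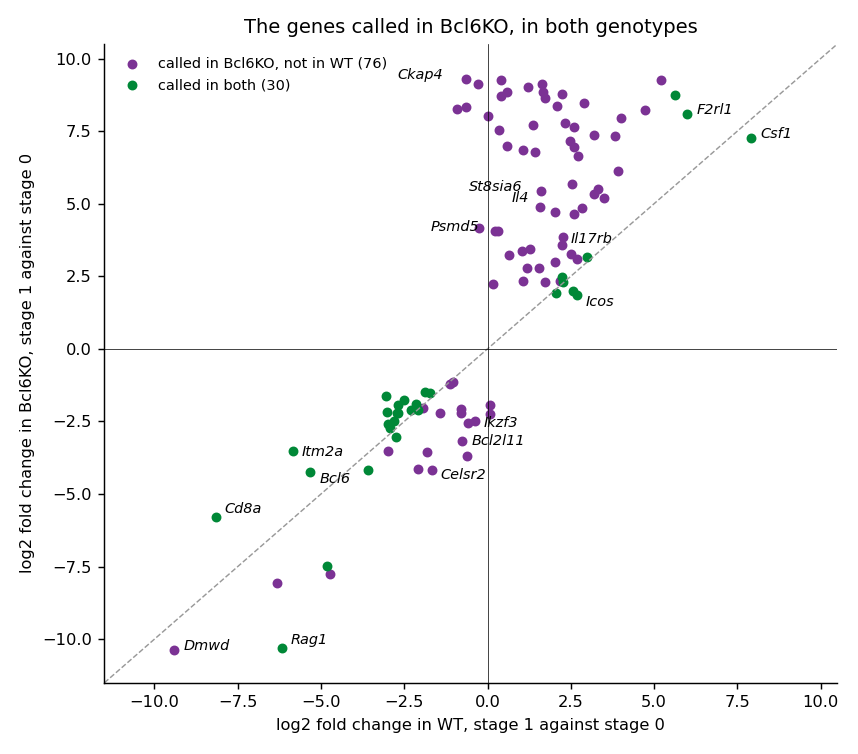
Log2 fold change of stage 1 against stage 0 in WT (x axis) and in Bcl6KO (y axis) for the 106 genes called in Bcl6KO, 30 of them also called in WT (green); the dashed line marks equal change. Falls lie near the line and many rises lie above it, where the choice of genes by their Bcl6KO call favours a larger Bcl6KO value.

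Genes with low p for a difference between genotypes are given as values, 5 of the 12 that the naming rule takes, which leaves out predicted models. The other 7, Zbtb45, Boll, Eif2b1, Ttc28, Ammecr1l, Exo1 and Scd2, had the same edgeR adjusted p of 0.483. Arpp21 fell in WT from 250.3 ± 145 to 0.40 ± 0.344 CPM and stood at 324, 407 and 79.5 CPM at stage 0 and 15.1, 49.7 and 15.8 CPM at stage 1 in Bcl6KO (difference 5.87, SE 1.12, edgeR adjusted p = 0.483). Tnfsf8, the ligand of CD30, was at 148, 157 and 92.9 CPM at stage 0 and 20.5, 116 and 31.5 CPM at stage 1 in Bcl6KO and at 153 ± 59.8 and 2.32 ± 1.91 CPM in WT (difference 4.78, SE 1.01, edgeR adjusted p = 0.483). In both genes 1 or more Bcl6KO stage 1 libraries kept a level that the WT stage 1 mean lacked. St8sia6 was at 54.2 ± 39.2 and 166 ± 27.2 CPM in WT, so that the Bcl6KO stage 0 libraries were the low ones (difference 3.82, SE 0.85, edgeR adjusted p = 0.483). In the other direction, Ikzf3 went from 935 ± 179.5 to 715 ± 195 CPM in WT (difference -2.11, SE 0.47, edgeR adjusted p = 0.483). Ccnd2, cyclin D2, stood at 1739.6, 2356 and 2627 CPM at stage 0 and 1117, 1481 and 1270.4 CPM at stage 1 in Bcl6KO and at 720.2 ± 34.7 and 1114 ± 138 CPM in WT (difference -1.43, SE 0.29, edgeR adjusted p = 0.483), and 7.86% of its exonic bases overlap another gene. Il7r, the interleukin 7 receptor and chosen after its values were seen, was at 255, 818 and 324 CPM at stage 0 and 451, 551 and 432 CPM at stage 1 in Bcl6KO and went from 59.5 ± 52.5 to 519 ± 37.5 CPM in WT (difference -3.09, SE 0.76, edgeR adjusted p = 0.494). None of these differences passed.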

How the data were processed

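Per the labels' protocols, RNA from sorted thymic iNKT cells was purified on QIAGEN columns and made into libraries by a NuGEN low-input method. The authors deposited a file of raw gene counts for each library, over 48672 Ensembl gene IDs, of which 48312 have a symbol in GENCODE M21, on the same mouse build. The submitters' processing notes name mm10 and the tools bcl2fastq, Bowtie2, TopHat2 and DESeq. Tool versions, the counter, its annotation and its strand setting were not given in the sources used here. If strand was not used, overlapping genes on opposite strands share their reads, so an overlap of more than 5% of exonic bases is stated beside a named gene where it bears on a call.

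Genotype, stage and replicate were read from the sample titles. Pairs of libraries within a group differed by more than sampling noise, so all 12 were kept. Chi-square per gene was 104.8 to 169.9 in Bcl6KO stage 0 pairs and 40.3 to 59.9 in Bcl6KO stage 1 pairs. In WT pairs it was 56.9 to 62.3 at stage 0 and 27.6 to 41.4 at stage 1. The fit shares its estimate of spread between the groups, so the wider scatter of Bcl6KO stage 0 was not modelled apart, which limits the p-values. From the counts, edgeR 4.0.16 in R 4.3.3 gave TMM factors, levels as CPM, and the two-sided quasi-likelihood F-test with robust estimation. The 15704 genes passing filterByExpr entered a fit of all 12 libraries with a mean for each of the groups and 8 residual degrees of freedom. P-values were adjusted by Benjamini-Hochberg over all genes tested, and genes under 0.05 are called. The common biological coefficient of variation was 0.835. The SE of a log2 fold change was taken as its size over the square root of F. A gene is separate where the 3 libraries of the stages do not overlap; 3 against 3 libraries cannot give an exact permutation p below 0.1, so no such test was run. A count of 0 allows up to 3 counts per library, 0.569 to 0.599 CPM in Bcl6KO. Folds against a stage with no count set the mean of the other stage over the mean of that floor. Floors cover counting error only, since PCR copies were not told apart.

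The members and the 56 gene lists were chosen with earlier results of these data known, so lists are described by counts and medians and were not tested. The text names Bcl6, Zbtb16, Cd24a and Cd44. It also takes from the called genes at 5 CPM or more with separate libraries, without pseudogenes, predicted models, sex-linked genes and receptor segments, those with the largest rises and falls, 25 each. From each list it takes the called members, otherwise the 4 with the lowest p and the one with the highest level. The 6 genes with the lowest p for the difference between genotypes in each direction, and the genes with the highest level, complete the rule. Genes outside it are said to be chosen after their values were seen. Promoters are those of RefSeq (GRCm38.p6), in which 4 of 5 genes looked up matched; Oas2 is named only. The procedure was tested on simulated data. Alternatives were other scaling factors, other filters, DESeq2 1.42.0, limma 3.58.1, a non-robust fit, the 6 Bcl6KO libraries alone, a replicate block, Sp100 left out, and each library left out. The Sp100 share as a covariate was added after seeing the data.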

Additional observations from a re-analysis of the deposited data

How the results depend on the processing

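The 66 rises and 40 falls depended on the model. There were 215 rises and 94 falls with no filter on low counts, 836 and 473 with DESeq2's Wald test, 1 and 12 with limma voom and sample weights, 1 and 2 with the 6 Bcl6KO libraries alone, and 6 and 12 with the Sp100 share as a covariate, which was chosen after seeing the data. Without Sp100 the rises were 43. With 1 library left out, rises ran from 3 to 181 and falls from 2 to 96; a fit that leaves a group with 2 libraries assumes that they vary like the others. The cause was not tested. Upper-quartile factors moved the median of all genes to 0.13 (log2) and limma voom to 0.30, and the share of rises among calls to 71.6% and 7.69%, against 66 of 106; no called gene changed sign under either. With a replicate block there were 19 rises and 20 falls, 37 of the 39 shared with the 106. The labels do not say what the numbers share, and deviations of same-numbered libraries correlated at 0.05, 0.03 and 0.02, each stage 0 library highest with its own number, a hint from the data and not the design. For the difference between genotypes, the count of 0 became 6 and 1 with no filter and 100 and 30 with DESeq2, and stayed at 0 under the other alternatives. The log2 fold change of Il7r changed sign to -0.0191 with relative log expression factors and with DESeq2 and to -0.431 with the Sp100 covariate, and ran from -0.242 to 0.728 with 1 library left out. That of Mki67 ran from -0.00252 to 0.604 with 1 library left out.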

Other observations

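Some genes were high in a single library. Genes at 100 CPM or more and at least 10 times the highest of the other 11 libraries numbered 26 in Bcl6KO stage 0 replicate 2, 13 in replicate 3 and 2 in replicate 1 of the same group, and 0 or 1 in each of the other libraries. None of them was among the 106 called genes. Map4k4, a kinase of the stress pathway, was at 26405 CPM in Bcl6KO stage 0 replicate 2 and at most 318 CPM elsewhere. Hmgb1, a chromatin protein, was at 12059 CPM in Bcl6KO stage 0 replicate 3 and at most 314 CPM elsewhere, and Ext2, of heparan sulfate synthesis, at 2031 CPM there and at most 118 CPM elsewhere. Together the 26 genes made up 3.39% of the scaled library and the 13 genes 1.65%. Hmgb1 and Ext2 were chosen after their values were seen.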
